A study of Rattus norvegicus with 232 samples.

Results

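The subject of these measurements is a set of genes that encode subunits of AMPA and NMDA receptors in rat whole brain. The 10 members were taken by name: Gria1, Gria2, Gria3 and Gria4 for the AMPA receptor, and Grin1, Grin2a, Grin2b, Grin2c, Grin2d and Grin3a for the NMDA receptor. All 10 were among the 20859 genes of the gene table used, and 39 of the 45918 transcripts of the matching transcript table belonged to them. Grin3b, a further NMDA receptor subunit gene with a mean of 3.83, is not in the set and is counted below among the other ionotropic receptor genes. The rule that lists the members uses no measured value, though it was written with earlier results of these data known. The samples were whole brains of inbred rats of the Hybrid Rat Diversity Panel, with no treatment wherever the labels state one, and the labels name no allele or agent beyond the strain. The rats were male where a sex was stated, and per the study's methods the brain was cut sagittally and 1 side was sequenced. The gene table held 214 ribosomal RNA-depleted total RNA libraries, which came from 197 animals of 74 strains. A total of 30 strains belonged to the HXB/BXH recombinant inbred family (progenitors BN-Lx/Cub and SHR/OlaIpcv), 19 to the FXLE/LEXF family (progenitors F344/Stm and LE/Stm), and 25, progenitors included, were classic inbred strains. A strain had at most 3 animals, and 69 strains had 2 or more. Where nothing in the labels said otherwise, animals with separate replicate numbers were treated as separate rats, and the p-values measure the spread between them. The labels give no age, and the study's methods describe young adults for the strains they cover.

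AMPA receptors are tetramers of GRIA subunits and carry most fast excitatory transmission in the brain, while NMDA receptors combine the obligatory GRIN1 subunit with GRIN2 or GRIN3 subunits and need glycine or D-serine beside glutamate to open. NMDA receptors pass calcium and are known for their part in synaptic plasticity. Subunits are spread unevenly over the brain: GRIN2C is best known from cerebellar granule cells and astrocytes, GRIN2D from the brainstem, diencephalon and interneurons, and GRIN2A and GRIN2B from the forebrain. In whole-brain RNA, fewer cells of a type and less RNA per cell cannot be told apart.

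Values are the authors' log2 expression values, so a difference of 1 is a doubling. They rest on reads per gene and not on reads per length, and the levels of different members are therefore not ranked against each other. The files hold no counts, so the depth behind each value is unknown. Library medians over all genes lay between 8.19 and 8.42. Brain markers were present in every animal: the means of the cortical and hippocampal glutamatergic marker list lay between 10.91 and 11.56, and those of 5 oligodendrocyte markers between 14.44 and 15.34. In 10 libraries other genes stood apart. In 6 of them the mean of a liver gene list was more than 3 above the median library, led by LE/Stm animal 2, the only animal of its strain in the table, at 16.96 against a median of 7.07. In the other 4, the 3 libraries of LEW/Crl and 1 of HXB17/Ipcv, all labelled male, the Y-linked gene Eif2s3y lay between 9.07 and 9.55, below its range of 9.85 to 11.76 in the other 210 libraries. These 4 libraries were picked by a value over 20 of the gene LOC100911498. It lay between 26.76 and 31.29 there, against 6.53 to 8.73 in the others. Values over 30 occurred only 5 times among all genes and libraries. The sex label of these 4 libraries is in doubt, and what lies behind these values was not tested. Without these 10 libraries 4 members in place of 5 passed the strain test described next, as did 33.8% of all genes.

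The question of the panel was how far strain accounts for expression. A limma F-test on strain over all 197 animals, adjusted over all genes by Benjamini-Hochberg, passed a 5% false discovery rate for 5 of the 10 subunit genes, which are called here. These were Gria3, Grin2a, Grin2b, Grin2c and Grin3a, and with replicate 1 left out of every strain 0 of the 10 were called (limma), against 15.9% of all genes. The same test, with all animals, called 37.3% of all genes, so the share among the subunits was close to the background. The share of variance that lay between strains (R2) was highest for Grin2b at 0.563 and Grin2a at 0.552, which placed them at the 85.5th and 83.9th percentile of all genes. The median R2 of all genes was 0.451, and 0.372 is expected with no strain effect at this number of strains and animals. The lowest R2 were those of Grin1 at 0.387 and Grin2d at 0.399. No sequencing batch held animals of both recombinant families, and this test has no batch term. Strain and batch can therefore not be fully told apart in the R2 over all strains. Some lowest and highest strains named below, such as HXB10/Ipcv and LH/MavRrrc for Gria1, share no batch either.

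**Figure D1:**
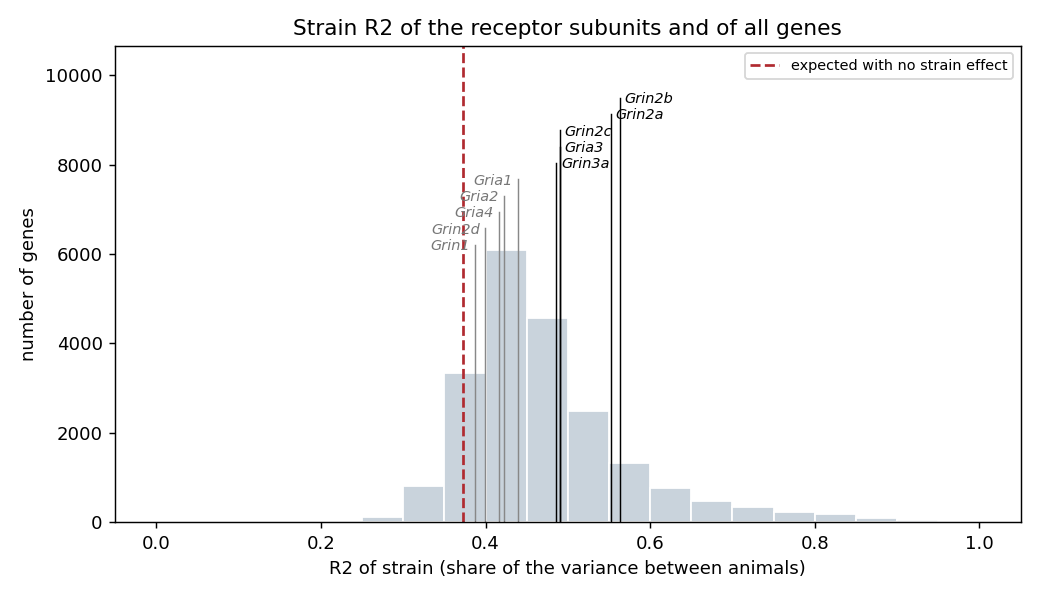
Histogram of the strain R2 of 20859 genes (horizontal axis, share of variance between strains; vertical axis, number of genes), with vertical lines at the 10 subunit genes, black where the strain effect was called and grey where it was not. The dashed line marks the 0.372 expected with no strain effect, and Grin2a and Grin2b lie farthest right at 0.552 and 0.563.

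The spread of strain means was narrow in every subunit gene. From the lowest to the highest strain with 2 or more animals, the difference ran from 0.25 in Gria1, a fold of 1.19, to 0.79 in Grin2c, a fold of 1.73. For Gria2, Gria4, Grin1, Grin2c and Grin2d the SD between animals of a strain was 0.165 or more. It was 0.098 or lower for Gria1 and Grin3a. Strains next to the extreme ones differed from them by less than 1 such SD in each gene, with the exception of the lowest strain of Gria4. The extreme strains were picked on the values compared, so a lack of overlap between them is no separate evidence of a strain effect. They did not overlap in the uncalled Gria1, Gria2, Gria4, Grin1 and Grin2d, and did in Grin2c, which was called. Overlap was not counted over all genes.

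**Figure D2:**
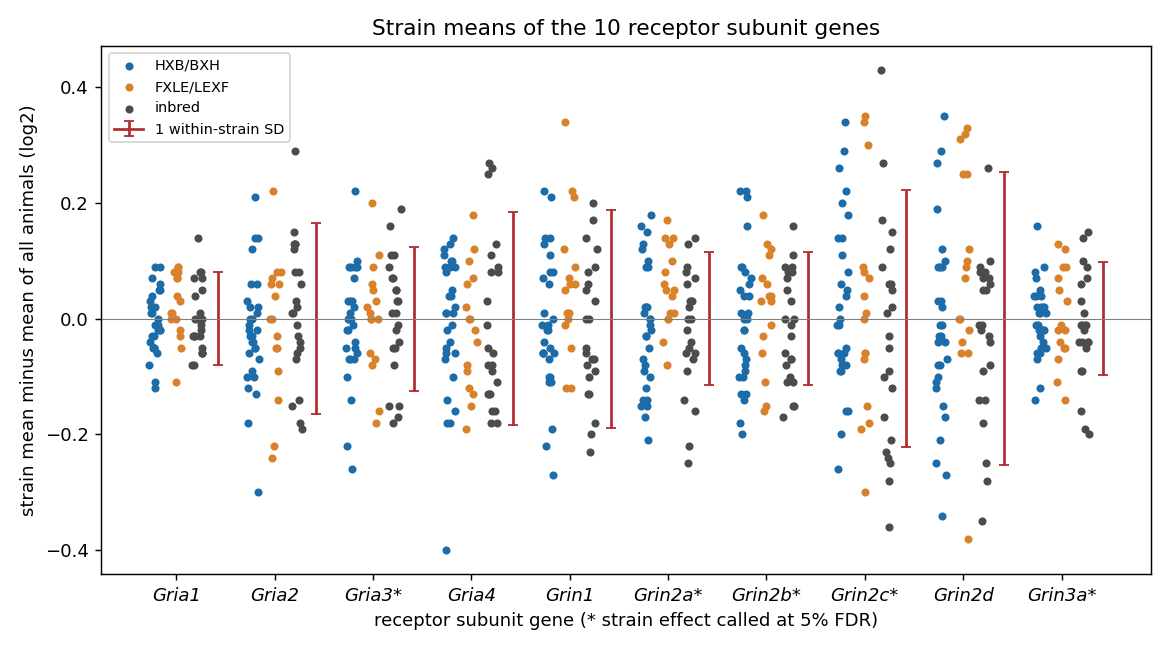
Strain means of the 10 subunit genes as differences from the mean of all animals (log2, vertical axis), for strains with 2 or more animals, coloured by panel, with a red bar for 1 SD to either side between animals of a strain. The points of Gria1 and Grin3a lie closest together and those of Grin2c and Grin2d farthest apart.

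Among the AMPA subunits, Gria3, an X-linked gene, was the only one called (R2 = 0.49, adjusted p = 0.0308, limma). Its value was 12.29, 12.37 and 12.57 in the 3 animals of HXB1/Ipcv, the lowest strain. It was 12.81, 12.85 and 13.02 in those of HXB24/Ipcv, the highest. The 2 strains did not overlap, and 1.40-fold separated the means of 12.41 and 12.89. HXB2/Ipcv at 12.45 and LEXF10A/Stm at 12.87 stood next to these ends. The deposited annotation of the reconstructed transcriptome, whose build is not given in the sources used here, places Gria3 on the plus strand of chromosome X from 120237842 to 120504106, and Gria1, Gria2 and Gria4 on chromosomes 10, 2 and 8.

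Gria2, whose edited subunit makes the receptor impermeable to calcium, had an R2 of 0.422 (adjusted p = 0.219, limma), under the median of all genes. It was called with 1 library per animal and the batch characteristic as a covariate (adjusted p = 0.0189, limma). It was also called without replicate 3. These settings called 58.7% and 29.1% of all genes. HXB1/Ipcv was the lowest strain here too, with 13.69, 13.81 and 13.99. BN-Lx/Cub was the highest with 14.21, 14.30 and 14.76. The extremes did not overlap, but the highest animal of BN-Lx/Cub stood 0.46 above the next one of its strain. Gria4, common in cerebellum and in interneurons, had an R2 of 0.416 (adjusted p = 0.24, limma), and again HXB1/Ipcv was lowest, with 11.98, 12.07 and 12.47. Its highest strain was BDIX/NemOdaMcwi with 12.78 and 12.91. Gria1, the main partner of GRIA2 in forebrain neurons, varied least. Its lowest strain, HXB10/Ipcv, had 12.72 and 12.73, and its highest, LH/MavRrrc, had 12.95, 12.97 and 13.01 (R2 = 0.439, adjusted p = 0.232, limma). HXB10/Ipcv animal 1 and BXH10/Cub animal 3 were among the animals set apart by liver genes.

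Of the NMDA subunits, Grin2b had the firmest strain effect (adjusted p = 0.000609, limma). The lowest strain, HXB2/Ipcv, had 14.49 and 14.66, and HXB7/Ipcv came next with a mean of 14.59. At the other end HXB24/Ipcv had 14.93, 14.97 and 15.07 and BXH10/Cub 14.86, 15.05 and 15.05, so that both means came to 14.99. The ends did not overlap and lay 1.33-fold apart. Grin2a (adjusted p = 0.00128, limma) was lowest in a related pair of strains, SHRSP/A3NCrl with 11.91 and 12.08 and SHR/OlaIpcv with 11.92 and 12.15. Its values were highest in BXH5/Cub with 12.40, 12.41 and 12.49 and in FXLE12/Stm with 12.39, 12.42 and 12.45. Neither of the low strains reached the lowest animal of the high ones. SHRSP/A3NCrl is among the strains treated as in doubt further on, and without those strains Grin2a stayed called (adjusted p = 0.002, limma). Single libraries of SHR/OlaIpcv animal 1 ran from 11.92 to 12.40, the highest being its batch 11 library, set apart by liver genes.

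Grin2c was called as well (R2 = 0.49, adjusted p = 0.0221, limma), with the widest spread of strain means. MWF/Hsd, the lowest strain, had 10.17, 10.42 and 10.61, and FHH/EurMcwi, the highest, had 10.59, 11.40 and 11.58. These extremes overlapped, through the low animal of FHH/EurMcwi. In the v6 Ensembl and v7.1 reconstructed tables neither Grin2c (adjusted p = 0.116 and 0.213, limma) nor Gria3 (0.271 and 0.345) nor Grin3a (0.0661 and 0.27) was called, whereas Grin2a and Grin2b were. Grin3a, whose subunit lowers the calcium flow of the receptor, passed narrowly (R2 = 0.486, adjusted p = 0.0485, limma). BDIX/NemOdaMcwi had 10.33 and 10.35, against 10.68, 10.71 and 10.73 in BXH5/Cub. Without the libraries set apart by liver and sex-linked genes the adjusted p of Grin3a was 0.0803.

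Grin1, the subunit that every NMDA receptor holds, was not called (adjusted p = 0.412, limma), with means from 12.80 in HXB10/Ipcv to 13.41 in LEXF5/Stm. The animals of HXB10/Ipcv had 12.77 and 12.82 and those of LEXF5/Stm 13.22 and 13.60, without overlap. HXB17/Ipcv, next to the highest at 13.29, includes 1 of the libraries set apart by sex-linked genes. Grin2d was not called either (adjusted p = 0.324, limma). It was called with 1 library per animal and the batch characteristic as a covariate (adjusted p = 0.0362, limma). That setting called 58.7% of all genes. Grin2d ran from 7.67, 7.95 and 8.13 in LEXF10A/Stm to 8.36, 8.78 and 8.80 in HXB29/Ipcv. In the annotation named above Grin1, Grin2b, Grin2d and Grin3a lie on chromosomes 3, 4, 1 and 5, and Grin2a and Grin2c on chromosome 10.

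Grin1, Grin2c and Grin2d rose together over strain means, with Pearson r of 0.45 to 0.54, but of only 0.26 to 0.38 in inbred strains. Grin1 was closer to Grin2a (0.62), and shared regulation was not tested. RefSeq promoters were at hand for Grin1, Grin2c and Grin2d. They are shown for that reason, as the 250 bases before each gene's start in GRCr8, on the minus strand, with CG dinucleotides in capitals.
Grin1 (chr3:28528755-28529004): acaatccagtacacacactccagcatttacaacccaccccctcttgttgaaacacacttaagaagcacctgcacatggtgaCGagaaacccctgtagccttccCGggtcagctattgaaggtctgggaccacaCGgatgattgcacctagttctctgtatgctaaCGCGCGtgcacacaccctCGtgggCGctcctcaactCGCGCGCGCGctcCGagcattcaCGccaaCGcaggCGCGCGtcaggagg
Grin2c (chr10:101005139-101005388): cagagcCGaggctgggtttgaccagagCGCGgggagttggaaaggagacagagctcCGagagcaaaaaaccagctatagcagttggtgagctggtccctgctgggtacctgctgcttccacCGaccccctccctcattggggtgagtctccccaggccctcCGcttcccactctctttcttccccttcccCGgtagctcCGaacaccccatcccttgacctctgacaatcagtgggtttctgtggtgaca
Grin2d (chr1:105481237-105481486): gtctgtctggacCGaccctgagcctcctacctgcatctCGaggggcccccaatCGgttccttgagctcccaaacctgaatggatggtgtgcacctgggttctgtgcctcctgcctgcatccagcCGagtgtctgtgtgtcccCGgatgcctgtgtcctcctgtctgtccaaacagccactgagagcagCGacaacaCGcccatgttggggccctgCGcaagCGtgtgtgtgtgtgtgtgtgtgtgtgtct
The Grin1 window held 19 CG dinucleotides, a number that 18.4% of 33469 RefSeq promoter windows of the same length reached. The windows of Grin2c and Grin2d held 8 and 9, which 41.6% and 38.5% reached, against a median of 5. Promoters of Gria4 and Grin3a were matched too, with 14 and 16. Promoters of Gria1, Gria2, Gria3, Grin2a and Grin2b are not shown.

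Within the panels fewer subunits were called. In the 30 HXB/BXH strains (88 animals) the test called Grin2a (R2 = 0.541, adjusted p = 0.0217, limma) and Grin2b (R2 = 0.545, adjusted p = 0.0177), against 19.1% of all genes. Among the classic inbred strains (66 animals) it called Grin2b alone (R2 = 0.593, adjusted p = 0.0465, limma), against 19.3% of all genes. In the 19 FXLE/LEXF strains (43 animals) limma called 0 subunits and 4.61% of all genes. Grin2c had the lowest adjusted p of the subunits there (R2 = 0.627, adjusted p = 0.141, limma). An R2 of 0.333, 0.369 and 0.429 is expected with no strain effect in HXB/BXH, inbred and FXLE/LEXF strains. With replicate 1 or 3 left out 0 subunits were called in HXB/BXH strains, and with replicate 2 left out 1. The inbred call of Grin2b was lost with 1 library per animal and the title batch as a covariate, with the replicate block, and with replicate 2 or 3 left out, each of which called 0 subunits there. Whether the panels differ was not tested.

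The progenitors of the HXB/BXH family, BN-Lx/Cub and SHR/OlaIpcv, differed in 2 AMPA subunits. Gria2 was 14.42 in BN-Lx/Cub and 13.94 in SHR/OlaIpcv, a difference of 0.49 ± 0.15 (SE), or 1.40-fold (adjusted p = 0.0377, limma contrast, 3 and 2 animals). Gria3 was 12.86 and 12.49, higher by 0.37 ± 0.11 (adjusted p = 0.0377, limma). Gria4 was 12.83 and 12.44 (difference 0.38 ± 0.17, adjusted p = 0.176, limma), and the other 7 subunits were not called. The contrast called 4.51% of all genes.

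Library by library, the BN-Lx/Cub values of Gria2 were 14.76 in animal 1, 14.30 in animal 2, and 14.25 and 14.17 in the 2 libraries of animal 3. The 12 libraries of SHR/OlaIpcv animal 1 ran from 13.68 to 14.19 and the 6 of animal 4 from 13.73 to 14.24. The groups overlapped, since the lowest BN-Lx/Cub library lay within the SHR/OlaIpcv range. BN-Lx/Cub animal 1 was the highest of all 197 animals for Gria2 and Gria4 (13.31) and the lowest for Gria1 (12.63), Grin1 (12.45), Grin2a (11.87) and Grin2d (7.45). In the batches that both strains share, SHR/OlaIpcv animal 1 had 13.99 in batch 3, 14.01 in batch 4 and 13.96 in batch 6, each below the BN-Lx/Cub library or libraries of that batch. For Gria3 the same batches gave 12.56, 12.64 and 12.54 in SHR/OlaIpcv, against 13.00 and 12.90, 12.71, and 12.67 in BN-Lx/Cub. The calls did not hold with replicate 1 left out of every strain (Gria2 0.33, adjusted p = 0.861; Gria3 0.34, adjusted p = 0.646, limma), which removes the highest BN-Lx/Cub animal and leaves SHR/OlaIpcv with 1 animal. With the replicate number as a block the differences were 0.45 and 0.30 and did not pass (adjusted p = 0.184 and 0.262, limma). With 1 library per animal they were 0.44 and 0.31 (adjusted p = 0.116 and 0.176, limma). With 1 library per animal and batch as a covariate the difference of Gria2 came to 1.01 (adjusted p = 0.00652, limma). Of the 30 derived strains, 29 lay between the progenitors for Gria2 and 27 for Gria3. For Grin2a 28, and for Grin1 and Grin2d 27 each, lay above both progenitors. These counts depend on where the progenitors stand among all strains. Of the 69 strains with 2 or more animals, BN-Lx/Cub was highest for Gria2 and next to lowest for Grin1 and Grin2d. SHR/OlaIpcv was next to lowest for Grin2a. Strains outside the family were not counted for comparison, and inheritance was not tested.

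**Figure D3:**
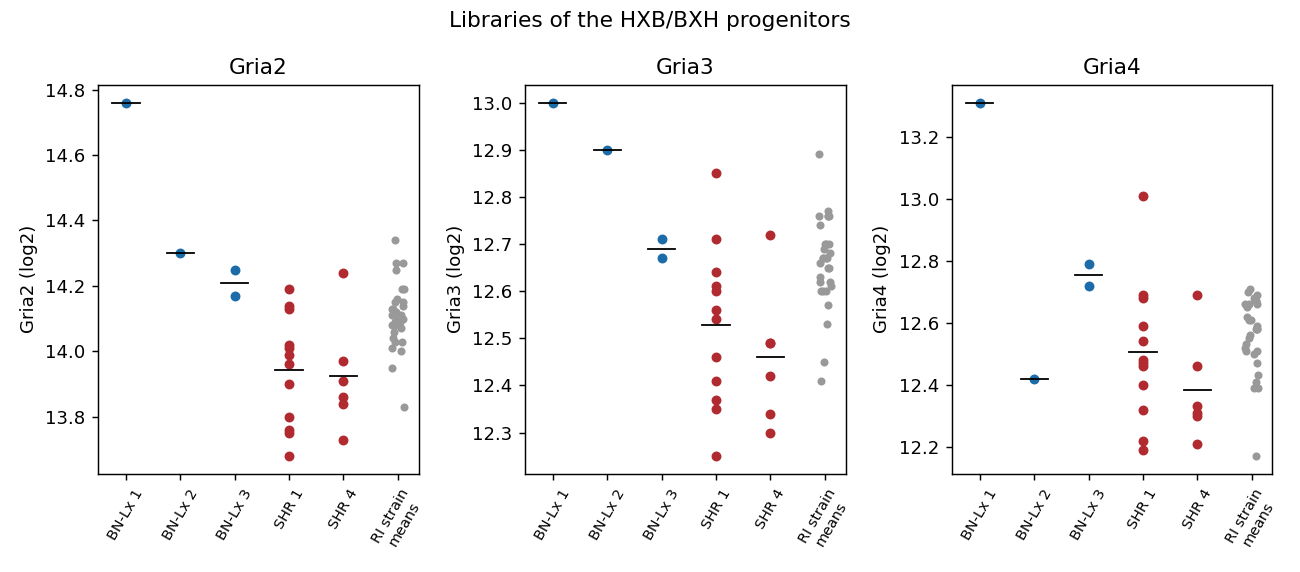
Single-library values (log2, vertical axis) of Gria2, Gria3 and Gria4 for the animals of BN-Lx/Cub (blue) and SHR/OlaIpcv (red), with a black bar at each animal's mean, and the means of the 30 HXB/BXH strains (grey). BN-Lx/Cub animal 1 is the highest point in each panel, and SHR/OlaIpcv libraries of 1 animal span from 13.68 to 14.19 in Gria2.

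In 2 further contrasts no subunit was called. Between SHR/OlaIpcv and the normotensive WKY/NCrl, limma called 0 subunits and 0.825% of all genes. An unadjusted p under 0.05 was found for 0 subunits and for 8.49% of all genes. Between the salt-sensitive SS/JrHsd and the salt-resistant SR/JrHsd it called 0 subunits and 0.988% of genes, and 2 subunits had an unadjusted p under 0.05, as had 10.1% of all genes. These were Grin2a (12.19 against 12.39) and Grin2b (14.62 against 14.85), with differences of -0.21 ± 0.09 and -0.23 ± 0.09 and adjusted p of 0.402 and 0.318. Between F344/Stm and LE/Stm the comparison rests on the single LE/Stm animal, set apart by liver genes, and its spread was taken from the other strains. Differences ran from -0.35 in Grin2c to 0.25 in Gria2 (F344/Stm minus LE/Stm), which says nothing firm of these 2 strains.

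Several of the 45 subunit pairs correlated over strain means, and no background of other gene pairs was set beside them. Over the means of 69 strains the closest pair was Gria2 and Gria3 (Pearson r = 0.90, Spearman rho = 0.86), followed by Grin2a and Grin2b (r = 0.77) and by Gria2 and Gria4 (r = 0.69). Gria2 ran against Grin2c (r = -0.61) and Grin2d (r = -0.55). Grin1 rose with Grin2d (r = 0.54), Grin2a (r = 0.62) and Grin2c (r = 0.45), and Grin2c with Grin2d (r = 0.52). The Gria2 and Gria3 relation was 0.86 in HXB/BXH, 0.96 in FXLE/LEXF and 0.93 in inbred strains. The points share libraries and their scaling.

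Some of these pairs also moved together among libraries of 1 rat, where strain is constant. Over the 12 libraries of SHR/OlaIpcv animal 1, r was 0.90 for Gria2 with Gria3, 0.82 with Gria4 and -0.82 with Grin2c. It was 0.84 for Grin1 with Grin2d and 0.85 for Grin2a with Grin2b, but 0.00 for Grin1 with Grin2a. Without the batch 11 library of this animal, 1 of those set apart by liver genes, the first 5 values over 11 libraries were 0.92, 0.85, -0.84, 0.85 and 0.81. That of Grin1 with Grin2a was 0.27 without this library. Over deviations of 192 animals from their strain means, Gria2 correlated with Gria3 at 0.88 and with Grin2c at -0.72, and Grin1 with Grin2a at 0.57. Over the 6 libraries of SHR/OlaIpcv animal 4 the first 5 pairs gave 0.98, 0.98, -0.97, 0.37 and -0.16, and Grin1 with Grin2a 0.39. The covariation of Gria2 with Gria3, Gria4 and Grin2c was thus present between libraries of single animals. In animal 1 Grin2c ranged from 9.93 to 11.32 and Grin2b from 14.44 to 15.19, spans of 1.39 and 0.75 that were 0.81 and 0.44 without the batch 11 library. For 8 of the 10 subunits the range over the 12 libraries of animal 1 exceeded the range over the 69 strain means, and for 3 of 10 it did so without the batch 11 library. Over the 6 libraries of animal 4 the range was narrower than that of the strain means in each of the 10, at 0.76 against 0.79 for Grin2c and 0.23 against 0.41 for Grin2b.

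**Figure D4:**
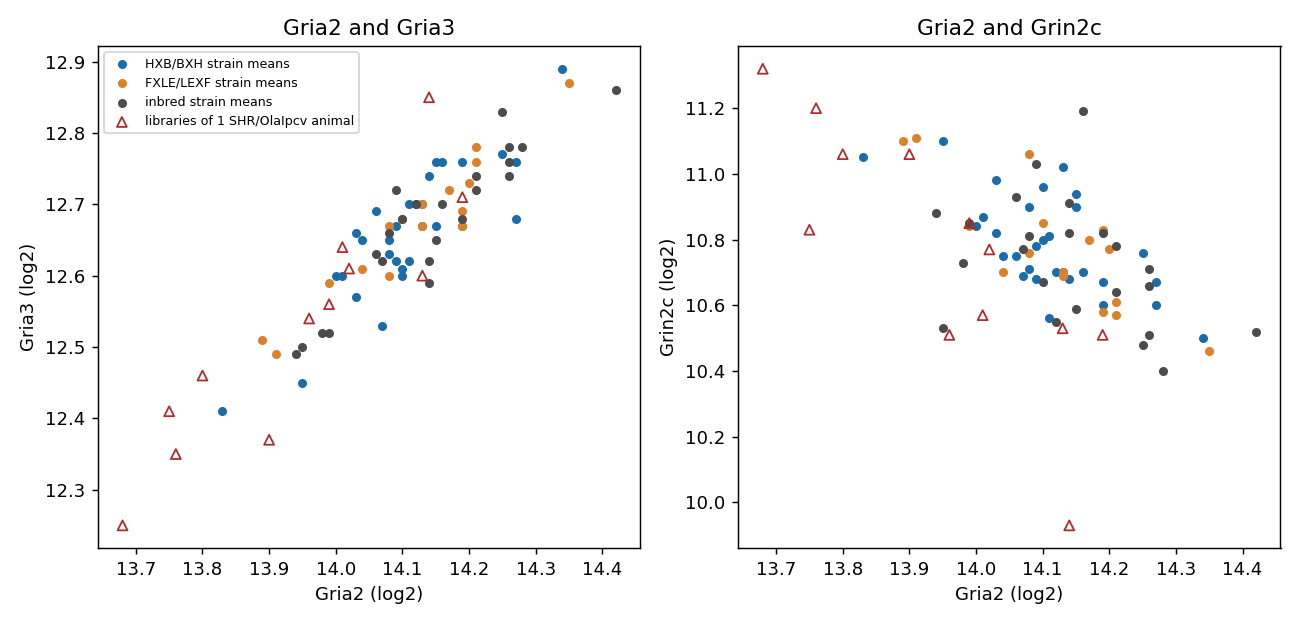
Gria2 (horizontal axis, log2) against Gria3 (left) and Grin2c (right), with filled points for the means of 69 strains coloured by panel and open triangles for the 12 libraries of SHR/OlaIpcv animal 1. In both panels the triangles run along the same slope direction as the strain means, with r of 0.90 and -0.82 over the triangles.

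Of all genes with a mean of at least 5, those named as most like Gria2 over the 69 strain means were Slc4a10 (r = 0.91) and Gria3 (0.90). Kcnh7 (0.92) led for Gria3, Fut8 (0.92) for Gria4, and Mical2 (0.67) for Gria1. For Grin1 they were Faim2 and Unc13a (0.91 each) and Mapre3 (0.89). Grin2b was most like the ion channel genes Cacna1e (0.90), Kcnma1 (0.90) and Kcnj6 (0.87), and Grin2a most like Plxna2 (0.86), Plxna4 (0.84) and Arfgef3 (0.83). Grin2c was closest to Mllt6 (0.80), Grin2d to Ctif (0.84) and Cygb (0.84), and Grin3a to Huwe1 (0.72).

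Marker genes of brain cell types moved with some subunits. Over 69 strain means the mean of 6 cortical and hippocampal glutamatergic markers correlated with Grin2a at 0.77 and Grin2b at 0.66, and less with Grin1 (0.57), Gria1 (0.51), Gria3 (0.39) and Grin3a (0.11). All 6 markers were measured and 3 were called. Their strain mean ran from 11.03 in HXB10/Ipcv to 11.41 in SR/JrHsd. With this mean as a covariate, a setting chosen after seeing the data, 2 subunits in place of 5 were called, against 38.7% of all genes. Grin2a then had an R2 of 0.453 (adjusted p = 0.145, limma), Gria3 an R2 of 0.464 (adjusted p = 0.0832) and Grin3a of 0.482 (adjusted p = 0.0549), while Grin2b and Grin2c stayed called. Over the 12 libraries of SHR/OlaIpcv animal 1 the cortical and hippocampal mean correlated with Grin2a at 0.77, with Grin2b at 0.83 and with Grin1 at 0.05, and over 11 of them, without the batch 11 library, at 0.67, 0.67 and 0.50. The mean of 7 cerebellar granule cell markers correlated with Gria4 at 0.46 and with Grin2c at 0.28. With that mean as a covariate the same 5 subunits as in the main test were called, against 37.6% of all genes. Of the other lists, the mean of 5 GABAergic markers correlated with Grin1 at 0.62, Grin2d at 0.53 and Grin2a at 0.47, and that of 6 striatal markers with Grin1 and Grin2a at 0.48 each. The mean of 4 choroid plexus markers correlated with Grin2c at 0.42 and with Gria3 and Grin2b at -0.40 each. Over the 12 libraries of that 1 rat the GABAergic mean gave 0.81 with Grin1 and 0.77 with Grin2d, and the choroid plexus mean 0.70 with Grin2c and -0.87 with Grin2b. Without the batch 11 library these were 0.77, 0.77, 0.52 and -0.83. The liver mean gave 0.66 with Grin2b and -0.62 with Grin2c over the 12 libraries, and -0.38 and 0.38 without that library. Over strain means hindbrain Hox genes correlated with Grin2d at 0.41, microglial markers with Grin3a at -0.39 and oligodendrocyte markers with Grin2b at -0.38. The part of cell make-up in these strain effects was not tested further.

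Isoform use of Gria2 differed between strains although its level did not pass in the main fit. The share of a transcript is its value on the linear scale over the sum for its gene, and it separates isoform use from gene level. Of the 31 subunit transcripts with a share, 5 were called (limma on log2 shares), against 5.75% of all 23829 transcripts with a share. The 31 leave out the 5 transcripts of Grin2c for the reason given further on. Those were tested with the rest and not called. Both Gria2 transcripts were among them, and since they sum to the whole they count as 1 result. NM_001083811.1 made up 48.3% of Gria2 on average and NM_017261.2 the other 51.7%. For NM_001083811.1 strain took an R2 of 0.631 (adjusted p = 2.86e-05, limma). The sources used here do not say which of these accessions carries which of the known GRIA2 splice exons.

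Among strains with 2 or more animals the share of NM_001083811.1 was lowest in BN/NHsdMcwi with 40.6%, 40.9% and 42.2%, and next in HXB15/Ipcv with a mean of 43.4%. It was highest in PVG/Seac with 49.8%, 50.8% and 61.1%, and next in BXH10/Cub with 53.2%, 53.7% and 54.6%. BN/NHsdMcwi overlapped with neither of the high strains, though all were picked on these values. The SD between animals of a strain was 3.20 percentage points, and over the 12 libraries of SHR/OlaIpcv animal 1 it was 3.18. The share was not tied to the level of the gene over strain means (r = -0.04), and its r with the cortical marker mean was 0.16. With that marker mean as a covariate the R2 was 0.627 (adjusted p = 5e-05, limma), and without the libraries set apart it was 0.638 (adjusted p = 5.6e-05).

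The effect was called within the HXB/BXH family (R2 = 0.711, adjusted p = 8.68e-05, limma, against 2.72% of transcripts called there). It was not called in FXLE/LEXF strains (R2 = 0.486, adjusted p = 0.832, 0.953% called) or in inbred strains (R2 = 0.549, adjusted p = 0.433, 2.36% called), and the difference between panels was not tested. The 30 HXB/BXH strain means fell on either side of a gap of 3.25 percentage points. A total of 17 strains lay between 43.4% and 47.0% and 13 between 50.3% and 53.8%, and the widest other step between neighbouring strains was 0.933 points. Single animals of the lower strains ranged from 38.1% to 50.5% and those of the upper strains from 46.4% to 57.1%, so animals overlapped where strain means did not. The gap was described after the values were seen. BN-Lx/Cub, with 42.4%, 43.0% and 48.8%, had a mean on the lower side, and SHR/OlaIpcv, with 49.1% and 50.9%, had a mean of 50.0%, just below the upper strains. The progenitors themselves did not differ at the threshold (log2 share -0.16 ± 0.09, unadjusted p = 0.0686, adjusted p = 1, limma), in a contrast that called 0.197% of transcripts. Without replicate 1 in every strain the adjusted p over all strains was 0.381, and without replicate 3 it was 0.0977.

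**Figure D5:**
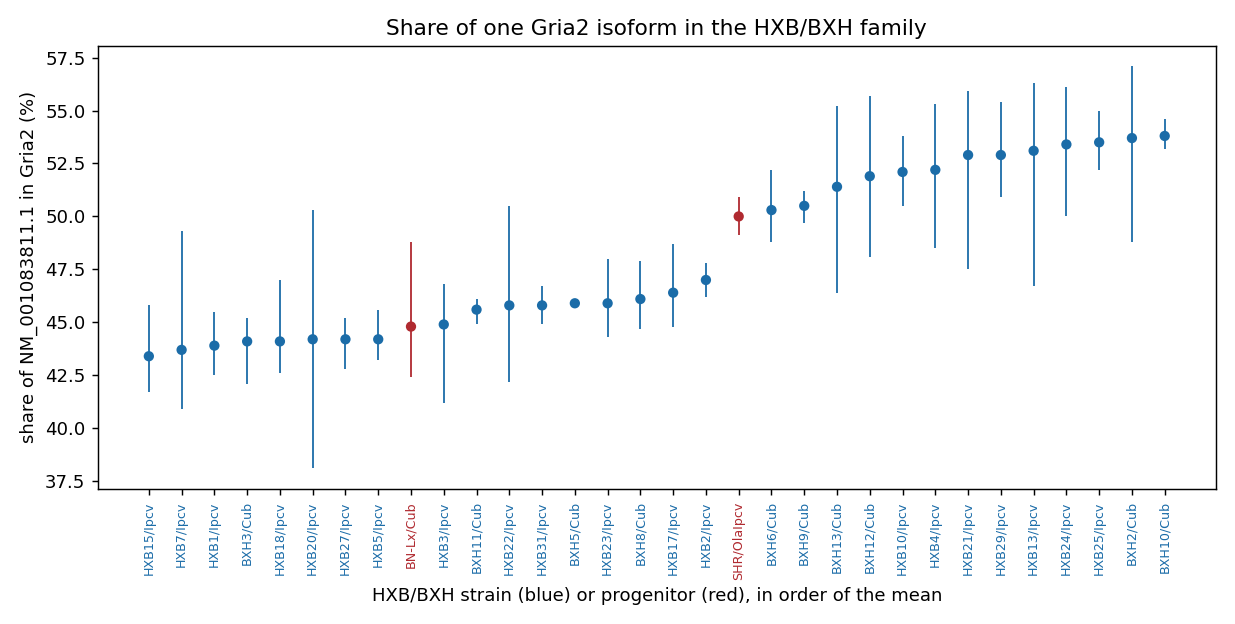
Share of NM_001083811.1 in Gria2 (%, vertical axis, not starting at 0) for the 30 HXB/BXH strains (blue) and the progenitors (red), in order of their means, with points for means and lines from the lowest to the highest animal. No HXB/BXH strain mean lies between 47.0% and 50.3%, and BN-Lx/Cub stands among the lower strains.

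The other 3 called shares were less firm. In Gria4, NM_017263.2 held 16.2% on average (R2 = 0.513, adjusted p = 0.0429, limma), with 6.60% and 11.4% in LEXF1C/Stm and 17.7%, 17.9% and 35.5% in HXB31/Ipcv. Without the libraries set apart its adjusted p was 0.103. In Grin1, NM_001270606.1 held 12.5% (R2 = 0.528, adjusted p = 0.0211, limma) and NM_001287423.1 held 22.1% (R2 = 0.516, adjusted p = 0.0398). NM_001270606.1 ran from 6.31% and 7.32% in LEXF1C/Stm to 12.9% and 26.1% in SHRSP/A3NCrl. Over the 12 libraries of SHR/OlaIpcv animal 1 its share had an SD of 7.31 points, against 3.66 between animals of a strain. With the replicate number as a block NM_001287423.1 had an adjusted p of 0.0519.

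The remaining subunits used their isoforms as follows. Grin2b was read mostly as XM_017592436.2, at 83.0%, with XM_017592439.2 at 10.5%, and Grin3a as XM_039109241.1 at 80.3% with NM_001198583.2 at 16.1%. Gria3 was read as NM_032990.2 at 62.2%, NM_001112742.1 at 18.5%, XM_017601950.2 at 8.76% and XR_005497951.1 at 6.52%. In Gria4 NM_001113185.1 held 46.7%, XM_039080969.1 16.8% and NM_001113184.1 14.0%. In Grin1 NM_001270610.1 held 29.5%, NM_001270608.1 16.1%, NM_017010.2 10.2% and NM_001270602.1 5.67%. None of these shares was called over all strains. Gria1 and Grin2a had 1 transcript each. The transcripts of Grin2c summed to 7.19 against a gene value of 10.76, and that of Grin2d gave 6.98 against 8.30, so no share is given for these genes. At the level of whole transcripts the strain test called 3 of the 39, against 13.9% of all transcripts: NM_001270606.1 of Grin1 (adjusted p = 0.000771, limma), NM_012573.3, the transcript of Grin2a (0.00819), and XM_017592436.2 of Grin2b (0.0134).

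Genes that act with these receptors were read from 6 lists. Of 20 AMPA receptor auxiliary and assembly proteins 10 were called, with a median R2 of 0.47 against 0.451 for all genes. Cacng5, a TARP auxiliary subunit, led with an R2 of 0.59 (9.26 in LEXF6B/Stm to 9.77 in BXH13/Cub), before the pentraxins Nptx1 (0.567) and Nptx2 (0.524), which gather AMPA receptors at synapses. Of 24 postsynaptic scaffold and signalling proteins 4 were called (median R2 0.432), led by Dlgap2 (0.553), Homer2 (0.547) and Homer1 (0.532). Homer1 was lowest in HXB1/Ipcv (12.35) and highest in LEXF10A/Stm (12.96), strains that also stood at or next to the ends for Gria2 and Gria3.

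Of 13 genes tied to glycine and D-serine, the co-agonists of the NMDA receptor, 9 were called, with a median R2 of 0.491. Among the 9 was Glra1 (R2 = 0.478), a glycine receptor gene that does not itself handle the co-agonists. Slc1a4, a transporter of serine and alanine, had an R2 of 0.615, from 9.43 in HXB10/Ipcv to 10.02 in HXB13/Ipcv. Shmt1 (0.515) and Gldc (0.509), enzymes of glycine metabolism, followed. Of 13 genes of glutamate transport and synthesis 5 were called (median R2 0.457). Glul, the glutamine synthetase of astrocytes, had an R2 of 0.704 (adjusted p = 1.4e-09, limma), Slc1a1, a neuronal glutamate transporter, 0.682 (adjusted p = 8e-09), and Gls2 0.517. Of 3 genes of the A-to-I editing enzyme family 1 was called, Adarb1 (0.519), the enzyme that recodes Gria2, and Adarb2 (0.473) and Adar (0.46) were not. Of 8 other ionotropic glutamate receptor subunits 2 were called, the kainate receptor subunits Grik1 (0.597) and Grik3 (0.53), and Grik2 (0.467) was not. These counts stand against the 37.3% of all genes called in the same test. With a replicate number left out they fell to between 2 and 5 for auxiliary genes and between 1 and 3 for glycine and D-serine genes. Those settings called 14.4% to 29.1% of all genes. With 1 library per animal and batch as a covariate the scaffold count was 15 of 24, against 58.7% of all genes.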

How the data were processed

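The authors deposited log2 values per gene and per transcript. Per the labels' processing notes, cutadapt, Bowtie2, HISAT2, StringTie, RSEM and DESeq2 were used, and per the study's methods for the earliest version, RSEM estimates were corrected for batch by RUV and transformed by rlog. For the version used here (v7.1, RefSeq annotation) the order of steps and the build are not given in the sources used here. Low values are drawn together by rlog, and splitting of reads between isoforms rests on RSEM. Spike-in features (73 per table) were left out, and 1 unmatched column of the earliest table was not used. Libraries of 1 animal were averaged. Strain was tested with limma 3.58.1 in R 4.3.3 (moderated F-test, or contrasts in the fit over all strains), with Benjamini-Hochberg adjustment over all features and a 5% threshold. Transcripts were tied to genes by RefSeq accession (32722 of 45918 matched). Shares are 2 to the power of the value over the sum for the gene. The fits were tested on simulated data. Named were all members, their extreme strains, the 3 genes with the highest R2 of each list, the 3 most alike genes (fewer are printed for some) and transcripts with a share of at least 5% or a called share. Members and lists were chosen with earlier results of these data known. Deviations of same-numbered animals of different strains had a median correlation of 0.017, against -0.013 for animals of different numbers. In HXB/BXH strains replicate numbers were tied to sequencing batch, since animals numbered 1 and 3 came from different batches. Leaving out a replicate number there also changes the batches that remain.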

Additional observations from a re-analysis of the deposited data

How the results depend on the processing

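The number of subunits called over all strains (5) stayed between 4 and 7 with 1 library per animal, alone or with batch covariates. All fits with batch use 1 library per animal. It also stayed there with the replicate block (5), median centring, a minimum mean of 5, the granule marker covariate and the table of the earliest version. The same held without the libraries in doubt and without the strains treated as in doubt. Those strains were LEW/Crl and LE/Stm, which held libraries set apart above, and F344/NCrl and SHRSP/A3NCrl, which held none. The settings that gave 4 to 7 called 33.8% to 62.8% of all genes. The number was 2 with the cortical marker covariate, chosen after seeing the data (38.7% of all genes called). It was 2 in the v6 Ensembl table (32.3%) and 2 in the v7.1 reconstructed table (20.2%). It was 0 to 3 with 1 replicate number left out, which also cut the calls over all genes from 7785 to between 3003 and 6065. Grin2a and Grin2b were called in each of the 3 other tables. Among all genes 1 library per animal gave 7425 calls, and 12240 with the batch characteristic added. In HXB/BXH strains (2) 1 library per animal with the batch characteristic gave 4 and leaving out a replicate number 0 to 1. In inbred strains (1) 1 library per animal with the title batch gave 0, the replicate block 0 and leaving out a replicate number 0 to 1. In FXLE/LEXF strains each setting gave 0. For BN-Lx/Cub minus SHR/OlaIpcv (2), 1 library per animal, the replicate block and median centring gave 0 each (adjusted p of Gria2 0.0519 under median centring), and leaving out a replicate number 0 to 2. The other contrasts stayed at 0 subunits where a fit was possible. Between SHR/OlaIpcv and WKY/NCrl the title batch could not be fitted, and between F344/Stm and LE/Stm leaving out replicate 2 removes LE/Stm.

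With 1 library per animal and the batch characteristic as a covariate, which called 58.7% of all genes, the lists gave 17 of 20 auxiliary, 15 of 24 scaffold, 12 of 13 glycine and D-serine, 8 of 13 glutamate transport, 2 of 3 editing and 5 of 8 other receptor genes. Leaving out a replicate number gave 2 to 5 auxiliary, 1 to 4 scaffold, 1 to 3 glycine and D-serine, 2 to 3 glutamate transport, 0 to 0 editing and 0 to 1 other receptor genes. Those settings called 14.4% to 29.1% of all genes. Whole transcripts of subunits called (3) came to 4 with 1 library per animal, 12 with that and the batch characteristic, 5 with the replicate block, 5 with a minimum mean of 5 and 0 to 3 with a replicate number left out. Shares called (5) came to 4 with the replicate block, 0 to 2 with a replicate number left out, and, in panels taken alone, 2 in HXB/BXH, 2 in FXLE/LEXF and 1 in inbred strains. Over all features, 1 library per animal gave 3992 calls in HXB/BXH strains, 548 (in place of 940) between BN-Lx/Cub and SHR/OlaIpcv, 6194 (6381) for transcripts and 1282 (1369) for shares, and with the batch characteristic added 6694, 1567, 10523 and 2091. Leaving out a replicate number gave 1677 to 1941, 207 to 1291, 2217 to 3501 and 440 to 756 there, 1199 to 2409 in place of 4029 in inbred strains, 60 to 1359 in place of 962 in FXLE/LEXF strains, 23 to 153 in place of 206 for SS/JrHsd minus SR/JrHsd and 46 to 109 in place of 172 for SHR/OlaIpcv minus WKY/NCrl. The cause of these changes was not tested. Fewer animals per strain remain where a replicate number is left out, and in HXB/BXH strains the mix of batches changes too.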

Other observations

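In panels taken alone, 2 subunit shares were called that were not called over all strains, against 2.36% of transcripts called in inbred and 0.953% in FXLE/LEXF strains. They are named after their values were seen and were not recomputed under other settings. In inbred strains the share of NM_001112742.1 in Gria3 (R2 = 0.746, adjusted p = 0.00051, limma) ran from 11.5%, 12.8% and 13.4% in LH/MavRrrc to 23.4%, 23.7% and 26.1% in MWF/Hsd. These 2 strains, picked on these values, did not overlap, and SR/JrHsd at 13.1% and COP/CrCrl at 21.1% stood next to them. Over the 12 libraries of SHR/OlaIpcv animal 1 this share had an SD of 4.9 points, against 3.63 between animals of a strain. Over all strains its R2 was 0.453 (adjusted p = 0.309, limma). In FXLE/LEXF strains the small share of XM_017592437.2 in Grin2b (R2 = 0.823, adjusted p = 0.00703, limma) ran from 0.495% in LEXF6B/Stm to 2.97% in LEXF1C/Stm, with 2 animals each.

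The strain means of the subunits differed between versions of the processing. Between the v7.1 RefSeq and v6 Ensembl values, over 57 strains with 2 or more animals in both, r lay between 0.72 for Grin2b and 0.98 for Gria1. Against the earliest version, over 44 strains, r was 0.25 for Grin2c, 0.39 for Gria2 and 0.81 for Grin2a. The versions share animals. In the earliest version, whose test called 62.8% of all genes and 7 of the 10 subunits, Gria4 had an R2 of 0.594 (adjusted p = 3.63e-05, limma) and Grin2d of 0.459 (adjusted p = 0.0304), and both were not called in the version reported above.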
